A study of Mus musculus with 8 samples.

Results

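Gene expression of 9 complement components, regulators and receptors was examined in the brown adipose tissue (BAT) of mice. They were *C2*, *C3*, *C4b*, *Cfb*, *Serping1*, *Cd55*, *Cd59a*, *C3ar1* and *C5ar1*. Every probe that the array names for these genes was taken, which gave 16 of 56605 probes and 9 of 37074 gene names on the array. C57BL/6J male mice, 12 weeks old, received 100 μL of saline intravenously (Co, n = 4) or the same volume with sonicated *P. gingivalis*, a periodontal bacterium (Pg, n = 4). BAT from interscapular fat was taken after 18 h. The labels print the dose as 108 colony-forming units, which the study's methods write with 8 as an exponent. Each sample was hybridized to 1 one-color Agilent array. The labels number 4 samples per group without saying that each is 1 mouse, so the p-values measure the spread between these samples.

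Between 31132 and 35831 probes were well above background per array, with 34760 to 35831 in Co and 31132 to 34063 in Pg. The 4 Co arrays lay in row 1 of the slide and the 4 Pg arrays in row 2, so slide position and treatment cannot be told apart. The labelled tissue was checked against its markers. Of 8 brown adipocyte genes, 6 were above background on all 8 arrays, whereas the only probes of *Ucp1* and *Elovl3* were above background on none. All 10 skeletal muscle genes were above background on all 8 arrays, and the share of muscle in these samples was not tested.

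Complement is a cascade of plasma and membrane proteins that marks and damages microbes. The classical and lectin pathways cut C4 and C2, and the alternative pathway joins C3b with factor B. Each route forms an enzyme that cuts C3, and the fragments coat targets, call in leukocytes and lead to the membrane attack complex. The liver makes most plasma complement, but adipocytes are known for secreting factor D, also called adipsin, and adipose stromal cells and macrophages also express components.

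Between Pg and Co, 0 of the 16 complement probes passed a false discovery rate (FDR) q of 0.1 by limma, and at an unadjusted p under 0.05 there was 1. Across all probes tested 7.82% were called and 22.8% had an unadjusted p under 0.05. The components *C3*, *C4b*, *Cfb* and *C2* had their highest value in Pg replicate 1 at each of their 7 probes, up to 3.21-fold above the Co mean, while the median deviation of these probes from the Co mean was -0.30 to 0.39 on the log2 scale in the other 3 Pg arrays. *Serping1* and all 4 probes of *Cd55*, which encode inhibitors, were highest in Pg replicate 2. *C3ar1*, the receptor of the fragment C3a, had the lowest q of the 16 probes, with a fitted level in Pg of 0.735 times that in Co.

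All 16 probes passed the filter of being well above background on at least 4 arrays, and 15 of them were above background on all 8. None of their spots carried an outlier or saturation mark. The fitted difference was positive at 10 probes and negative at 6, whereas 42.3% of all probes tested had a positive difference. The positive count was 7 without Co replicate 1, 8 without Pg replicate 1, 8 without Pg replicate 2 and 8 with the median signal, so this contrast rests on the arrays and the signal used. The median difference of the 16 probes was 0.08 on the log2 scale, beside -0.04 for all probes tested. At no probe did the groups separate, while 15.8% of all probes tested had groups that did not overlap. In whole tissue, fewer cells of a type and less RNA per cell cannot be told apart.

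The sequences of 4 probes are shown because *C3*, *C4b* and *Cfb* were each read at separate places of the transcript, and because one probe bears on which gene is read. The array's own annotation places these 60-base probes on mm9, minus strand of chromosome 17. The *C3* probe lies at chr17:57343678-57343737, the *C4b* probe at chr17:34866361-34866420, and the *Cfb* probes at chr17:34993502-34993858 and chr17:34994617-34994676. The first *Cfb* probe covers 357 bases of the genome, so it crosses at least 1 intron.
C3 A_55_P2038525: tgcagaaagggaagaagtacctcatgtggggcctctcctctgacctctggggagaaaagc
C4b A_51_P428708: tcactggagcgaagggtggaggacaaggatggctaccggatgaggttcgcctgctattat
Cfb A_51_P413866: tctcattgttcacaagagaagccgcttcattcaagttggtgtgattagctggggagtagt
Cfb A_66_P138911: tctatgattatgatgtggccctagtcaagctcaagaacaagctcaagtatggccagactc
The array lists accessions of *C4a* as well as *C4b* for A_51_P428708. *C4a* is a near-identical copy of *C4b*, so the gene behind that signal is uncertain. *C2*, *Cfb* and *C4b* lie near each other in the major histocompatibility complex on chromosome 17, and *C3* lies elsewhere on the same chromosome.

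The *C3* upstream sequence is shown because C/EBP factors are known to act at acute-phase promoters and *C3* is an acute-phase gene. RefSeq promoter sequence (GRCm38.p6) was given for 5 of the 9 genes, namely *C3*, *C3ar1*, *C5ar1*, *Cd55* and *Cd59a*. The 250 bases before the *C3* start are printed for chr17:57228137-57228386, minus strand, with matches to a C/EBP-type motif in capitals.
C3 upstream: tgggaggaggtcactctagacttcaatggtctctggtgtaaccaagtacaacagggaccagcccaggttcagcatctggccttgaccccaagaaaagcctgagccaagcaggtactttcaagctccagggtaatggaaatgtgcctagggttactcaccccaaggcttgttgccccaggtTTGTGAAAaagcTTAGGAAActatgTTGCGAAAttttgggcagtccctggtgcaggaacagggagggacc
The motif searched was TTNNGNAA on both strands, and it was present in 36.8% of 32851 promoter windows of this length. The *C3* window held 3 matches, which began 70, 58 and 45 bases before the start and did not overlap. A share of 2.61% of all windows held 3 or more. *C5ar1* held 1 match, TTGGGGAA, and the other 3 windows held none. A GAS motif (TTCNNNGAA, in 7.02% of all windows) and the kappa B consensus (in 7.25%) matched none of the 5 windows, and an ISRE core (in 2.98%) matched *Cd59a*. These matches describe the letters in the windows only.

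*C3* encodes the protein on which the 3 pathways converge. Its brighter probe, A_51_P110301 (chr17:57343416-57343475 on mm9, minus strand), read a log2 signal of 11.36, 11.21, 11.69 and 11.43 in Co replicates 1 to 4, and of 13.07, 12.05, 11.26 and 11.88 in Pg replicates 1 to 4. Pg replicates 1, 2 and 4 were above every Co array and Pg replicate 3 was inside the Co range. The fitted difference, Pg minus Co, was 0.64 (SE 0.34, 95% interval -0.15 to 1.44, limma q = 0.307). Pg replicate 1 alone was 3.14-fold above the Co mean, and the difference was 0.31 without it.

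The other *C3* probe, A_55_P2038525, read 10.57, 10.41, 10.88 and 10.50 in Co and 11.77, 10.98, 10.35 and 10.77 in Pg. The order of the Pg arrays was the same as at the first probe, with replicate 1 highest and replicate 3 lowest. The fitted difference was 0.38 (SE 0.28, limma q = 0.458), and 0.11 without Pg replicate 1, which was 2.27-fold above the Co mean. The spread within Pg (SD 0.75 and 0.60 at the *C3* probes) was larger than the fitted differences, and larger than that within Co (SD 0.20 at both).

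*C4b* encodes the C4 protein cut by the classical and lectin proteases. Its probe A_66_P117032 (chr17:34865367-34865426 on mm9, minus strand) read 9.67, 10.25, 9.91 and 9.67 in Co and 11.56, 10.49, 9.79 and 10.12 in Pg. Pg replicates 1 and 2 were above every Co array, and the other two Pg arrays lay among them. The difference was 0.61 (SE 0.36, 95% interval -0.21 to 1.44, limma q = 0.346) and 0.26 without Pg replicate 1, which was 3.21-fold above the Co mean. At A_51_P428708, the probe shared with *C4a*, the values were 7.23, 7.85, 7.61 and 7.72 in Co and 9.0, 8.08, 7.30 and 7.68 in Pg. The same Pg arrays were on top. The difference there was 0.41 (SE 0.34, limma q = 0.511) and 0.09 without Pg replicate 1. The probe that the array names *C4a* read 4.89, 5.91, 6.03 and 5.31 in Co and 6.38, 6.11, 5.81 and 5.35 in Pg, again highest in Pg replicate 1 (difference 0.38, limma q = 0.50).

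*Cfb* encodes factor B, the protease of the alternative pathway. Its probe A_51_P413866 read 7.96, 8.47, 8.47 and 8.40 in Co and 9.23, 8.50, 7.96 and 8.42 in Pg. Pg replicate 1 stood above the Co arrays at this probe, at 1.88-fold over their mean, and Pg replicate 2 was just above the highest of them. The difference was 0.21 (SE 0.26, limma q = 0.669), and -0.03 without that array. At A_66_P138911 the values were 5.67, 6.42, 6.17 and 6.19 in Co and 6.76, 6.36, 5.51 and 5.95 in Pg, with a difference of 0.03 (SE 0.28, limma q = 0.954) and of -0.17 without Pg replicate 1.

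*C2* encodes the protease that joins C4b in the C3-cutting enzyme. Its single probe, A_51_P497985 (chr17:34999575-34999634 on mm9, minus strand), read 7.66, 8.48, 8.12 and 7.91 in Co and 8.82, 7.80, 7.72 and 8.17 in Pg. Pg replicate 1 was the highest array, with Co replicate 2 next. The difference was 0.08 (SE 0.27, 95% interval -0.54 to 0.71, limma q = 0.877) and -0.15 without Pg replicate 1.

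**Figure D1:**
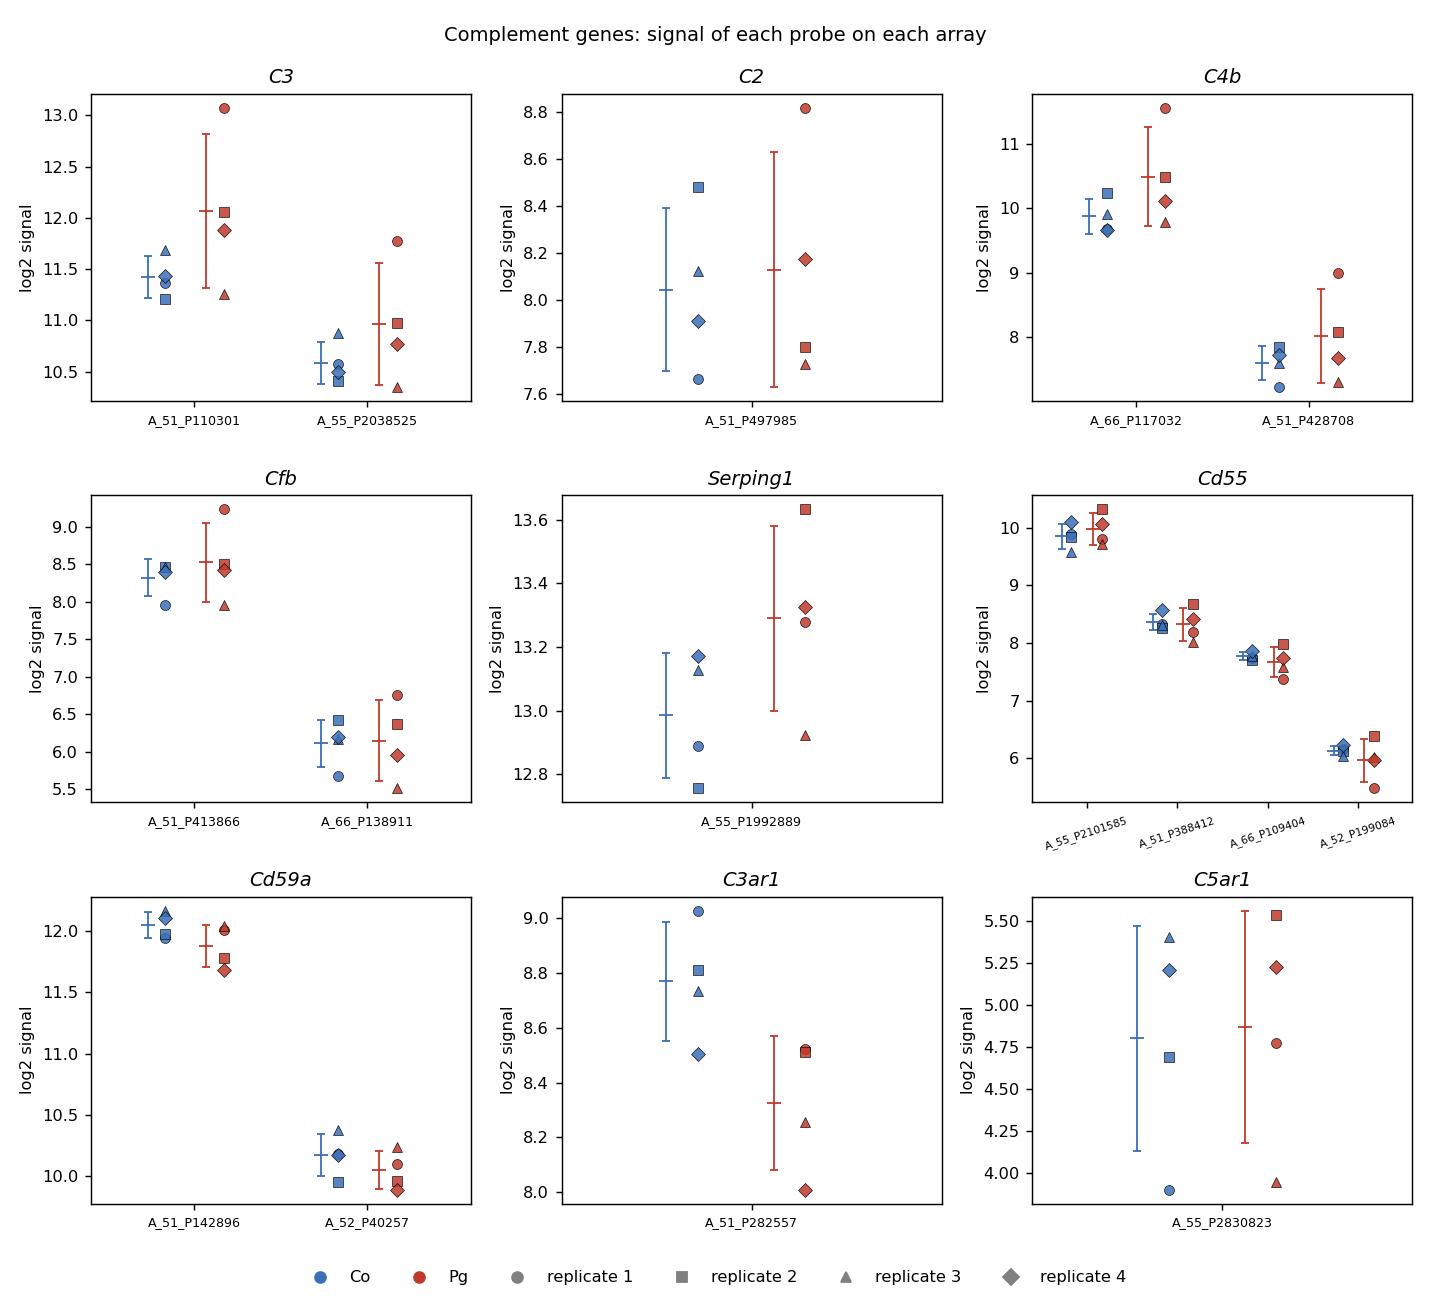
Log2 signal (vertical axes, quantile-normalized) of each of the 16 probes of 9 complement genes, by probe on the horizontal axis, on the 4 Co arrays (blue) and 4 Pg arrays (red). Marker shapes give the replicate number and bars the mean ± SD. Pg replicate 1 (red circle) is the highest array at the 7 probes of *C3*, *C2*, *C4b* and *Cfb*, and Pg replicate 2 (red square) at *Serping1*, the 4 probes of *Cd55* and *C5ar1*.

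Over the 7 probes of *C3*, *C4b*, *Cfb* and *C2*, the median deviation from the Co mean was 1.18 on the log2 scale in Pg replicate 1. It was 0.39, -0.30 and 0.13 in Pg replicates 2, 3 and 4, and -0.37, 0.25, 0.08 and 0.01 in Co replicates 1 to 4. One Pg array was thus apart from the other 3, of which replicates 3 and 4 lay within the span of the Co arrays. Pg replicate 1 was the highest of the 8 arrays at 7 of the 16 probes, beside 12.4% of all probes tested, and Pg replicate 2 at 6, beside 12.2%. The 7 probes stand for 4 genes and share one RNA sample, so they are not separate observations of this array.

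*Serping1* encodes the C1 inhibitor, a secreted serpin that blocks C1r, C1s and the MASP proteases. Its probe A_55_P1992889 (chr2:84605663-84605722 on mm9, minus strand) read 12.89, 12.76, 13.13 and 13.17 in Co and 13.28, 13.63, 12.92 and 13.33 in Pg. Pg replicates 1, 2 and 4 were above every Co array and Pg replicate 3 was not. The difference was 0.30 (SE 0.16, 95% interval -0.07 to 0.67, limma q = 0.300). Unlike the difference at the component probes, it was 0.31 without Pg replicate 1, and it was 0.19 without Pg replicate 2.

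*Cd55* encodes decay-accelerating factor, a membrane protein that breaks up the enzymes that cut C3 and C5. Its brightest probe, A_55_P2101585, read 9.90, 9.83, 9.58 and 10.11 in Co and 9.82, 10.32, 9.72 and 10.07 in Pg. The groups overlapped throughout, with Pg replicate 2 highest. The 4 probes gave differences of 0.13, -0.04, -0.10 and -0.17, with standard errors of 0.12 to 0.17 and limma q from 0.598 to 0.888, and they did not share a sign. The widest deviation was at A_52_P199084 (chr1:132344000-132344059 on mm9, minus strand), which read 6.15, 6.11, 6.03 and 6.23 in Co and 5.47, 6.38, 6.02 and 5.97 in Pg. There Pg replicate 1 was the lowest array and Pg replicate 2 the highest. The probe A_66_P109404 (chr1:132353415-132353474 on mm9, minus strand), with the difference of -0.10, read 7.73, 7.71, 7.78 and 7.87 in Co and 7.38, 7.99, 7.58 and 7.75 in Pg. Pg replicates 1 and 2 were again the lowest and the highest array. The probe A_51_P388412 read 8.34, 8.26, 8.31 and 8.57 in Co and 8.19, 8.69, 8.02 and 8.41 in Pg. It covers 7987 bases of the genome and so crosses introns, and its difference was -0.04 (95% interval -0.38 to 0.30).

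*Cd59a* encodes a membrane inhibitor of the membrane attack complex. A_51_P142896 (chr2:103954688-103954747 on mm9, plus strand) read 11.94, 11.98, 12.17 and 12.11 in Co and 12.01, 11.79, 12.04 and 11.69 in Pg. A_52_P40257 read 10.18, 9.95, 10.37 and 10.17 in Co and 10.10, 9.96, 10.24 and 9.89 in Pg. Both probes were highest in Co replicate 3 and lowest in Pg replicate 4, and the groups overlapped. The differences were -0.17 (SE 0.10, 95% interval -0.40 to 0.06, limma q = 0.346) and -0.12 (SE 0.11, 95% interval -0.38 to 0.13, limma q = 0.539). The interval of the first probe put the Pg level between 0.758 and 1.04 times the Co level.

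*C3ar1* encodes the receptor of C3a, found on macrophages and other myeloid cells. Its probe A_51_P282557 (chr6:122798222-122798281 on mm9, minus strand) read 9.03, 8.81, 8.74 and 8.50 in Co and 8.52, 8.51, 8.26 and 8.01 in Pg. Co replicates 1 to 3 were above every Pg array, while Co replicate 4 lay just below the 2 highest Pg arrays. The difference was -0.44 (SE 0.15, 95% interval -0.79 to -0.10, unadjusted p = 0.0179, limma q = 0.138). With the normexp background correction the same comparison gave -0.39 and passed the threshold (limma q = 0.0891). The difference stayed between -0.53 and -0.34 with each array left out in turn, and limma q stayed between 0.132 and 0.249.

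*C5ar1* encodes the receptor of C5a, which draws neutrophils. Its probe A_55_P2830823 was above background on 3 Co and 2 Pg arrays only, and read 3.90, 4.69, 5.40 and 5.21 in Co and 4.77, 5.53, 3.94 and 5.23 in Pg. The groups spanned nearly the same range. The difference was 0.07 (SE 0.42, limma q = 0.937), and its 95% interval from -0.91 to 1.05 spanned 0.532 to 2.07 times the Co level.

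**Figure D2:**
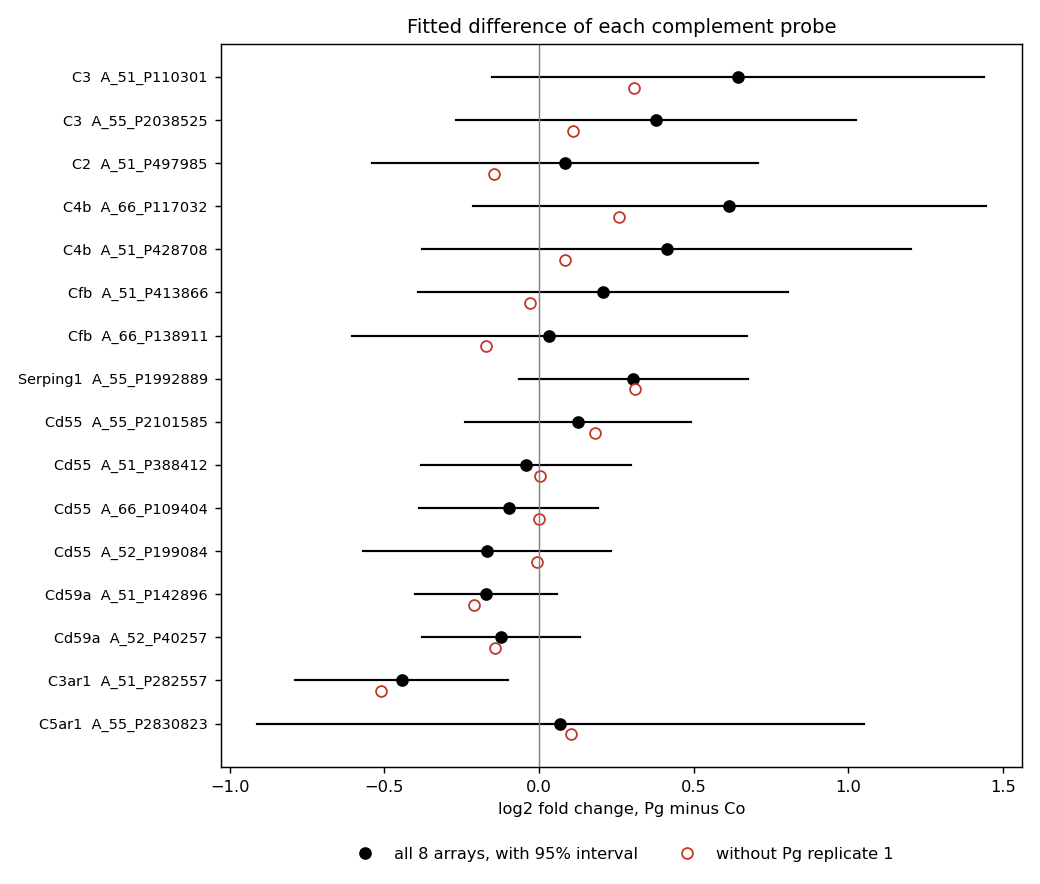
Fitted log2 fold change, Pg minus Co (horizontal axis), of the 16 complement probes (vertical axis). Filled points are the fit to all 8 arrays with the 95% interval, and open red points the fit without Pg replicate 1. The interval of *C3ar1*, from -0.79 to -0.10, lies below 0 and the other 15 contain 0. The *C3* difference at A_51_P110301 goes from 0.64 to 0.31 without Pg replicate 1.

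The rest of the pathway was followed with a list of 47 other complement genes, of which 33 were tested by the probe with the highest mean. A positive difference was found for 22, beside 42.3% of all probes tested, and a negative one for 11, with a median of 0.08. *Cd93* and *Masp2* rose and no gene fell at q under 0.1, where 1.82% of all probes tested were called higher and 6% lower. *Cd93* was the only one of the 33 that also met a fold change above 1.5, a rule that 1.61% of all probes tested met. A total of 8 genes were not above background on any array, namely *Mbl1*, *Mbl2*, *Fcnb*, *Colec10*, *Hc*, *Cfi*, *C4bp* and *Cpn2*.

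*Cd93* encodes a membrane protein of endothelial and myeloid cells that was first described as a C1q receptor. It read 12.13, 12.36, 12.23 and 12.51 in Co and 12.96, 13.03, 12.72 and 13.06 in Pg. Every Pg array was above every Co array. The difference was 0.63 (SE 0.11, 95% interval 0.38 to 0.88, a fold of 1.55, limma q = 0.0494). The call was lost without Co replicate 2 (difference 0.65, limma q = 0.113) and without Co replicate 3 (difference 0.61, limma q = 0.114), without both Co replicate 2 and Pg replicate 1 (limma q = 0.192), and with no normalization between arrays (limma q = 0.128). The replicate block, under which no probe was called, also lost the call, which held under 12 of the 17 alternatives.

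Of 8 endothelial genes, all of them above background on all 8 arrays, 5 had a positive difference, and *Kdr* (0.57, limma q = 0.0573) and *Egfl7* (0.42, limma q = 0.0419) rose. Across all probes tested, 42.3% had a positive difference and 1.82% were called higher. The summed signal of the 8 endothelial genes, of which *Egfl7* was the brightest, was 25730 to 30810 in Co and 34540 to 36250 in Pg. Their mean log2 signal overlapped, at 10.73 to 11.11 in Co and 10.95 to 11.07 in Pg. *Pecam1* had a difference of -0.20 and *Cdh5* of 0.13, and neither passed the threshold. The part of endothelial cell content in the *Cd93* result was not tested.

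Among the 13 tested initiators of the classical and lectin pathways, 10 had a positive difference, beside 42.3% of all probes tested. *Masp2*, a lectin pathway protease, rose at its brightest probe, which read 5.58, 5.74, 5.49 and 5.63 in Co and 6.02, 5.88, 6.04 and 5.86 in Pg. Every Pg array was above every Co array, by a fitted 0.34 (SE 0.08, limma q = 0.0650). Its other tested probe had a difference of 0.09 (limma q = 0.793). The call was lost without any one of the arrays other than Pg replicate 3, with limma q of 0.104 to 0.135, and it held without that array (limma q = 0.0995). It was also lost with normexp (limma q = 0.110), with the median signal (limma q = 0.179) and with no normalization (limma q = 0.128). The replicate block and the fit without both Co replicate 2 and Pg replicate 1 lost it too. The call held under 4 of the 16 alternatives run for this probe.

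*C1rb*, a copy of the C1r protease gene, had the most negative difference of the 33, at -0.48 (SE 0.20, limma q = 0.207). Its other probe had a difference of 0.09. *Masp1*, chosen after its values were seen because its probes disagreed, had a difference of -0.06 at its brightest probe, of 0.21 at another, and of -0.55 at A_52_P54274, which passed the threshold (limma q = 0.0714). That probe read 8.04, 8.02, 8.52 and 8.27 in Co and 7.63, 7.52, 7.88 and 7.60 in Pg, without overlap.

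The subunit genes of C1q, *C1qa*, *C1qb* and *C1qc*, had differences of 0.18, 0.25 and 0.09, with limma q of 0.688 to 0.897. Their arrays were ordered otherwise than those of *C3*. The mean of the 3 genes deviated from its Co mean by 0.90 in Pg replicate 2, by 0.41 in Pg replicate 4, by 0.07 in Pg replicate 1 and by -0.69 in Pg replicate 3. The mean of 10 macrophage genes deviated by 0.62, 0.84, 0.22 and -0.49 in the same arrays. *Cd14*, one of these genes, read 11.28 in Pg replicate 4 against 7.10 to 8.07 on every other array, which raised that mean. All 10 macrophage genes were above background on all 8 arrays. Their summed signal, of which *Lyz2* was the brightest part, was 8439 to 14290 in Co and 8387 to 26970 in Pg. Pg replicate 3 was thus lowest for both sets, and the part of macrophage content in the C1q values was not tested.

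Of the alternative pathway genes, *Cfp*, which encodes properdin, had a difference of 0.42 (SE 0.22, limma q = 0.295). It was highest in Pg replicates 2 and 4, at 10.53 and 10.34, against 9.45 to 9.73 in Co. *Cfd* encodes factor D, or adipsin, which cuts factor B and is made in large amounts by adipocytes. It read 12.73, 13.84, 13.24 and 12.68 in Co and 14.29, 12.86, 12.67 and 13.46 in Pg, a difference of 0.20 (SE 0.40, limma q = 0.798). Its second probe gave 0.04. Pg replicate 1 was the highest array and Co replicate 2 the next.

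In the terminal pathway, *C8g*, *C7* and *C9* were tested, and none passed the threshold. *C8g* had a difference of -0.25 (limma q = 0.307). Among the soluble regulators, *Clu*, *Vtn* and *Cfhr2* had differences between -0.08 and 0.02. Of the 4 membrane regulators, *Cd55b*, a copy of *Cd55*, was lowest, at -0.22 by its brighter probe (limma q = 0.350). That probe was highest in Pg replicate 2, like *Cd55*. The other *Cd55b* probe was highest in Co replicate 2, with a difference of -0.54 (limma q = 0.222). It was above background on 4 Co and 0 Pg arrays.

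**Figure D3:**
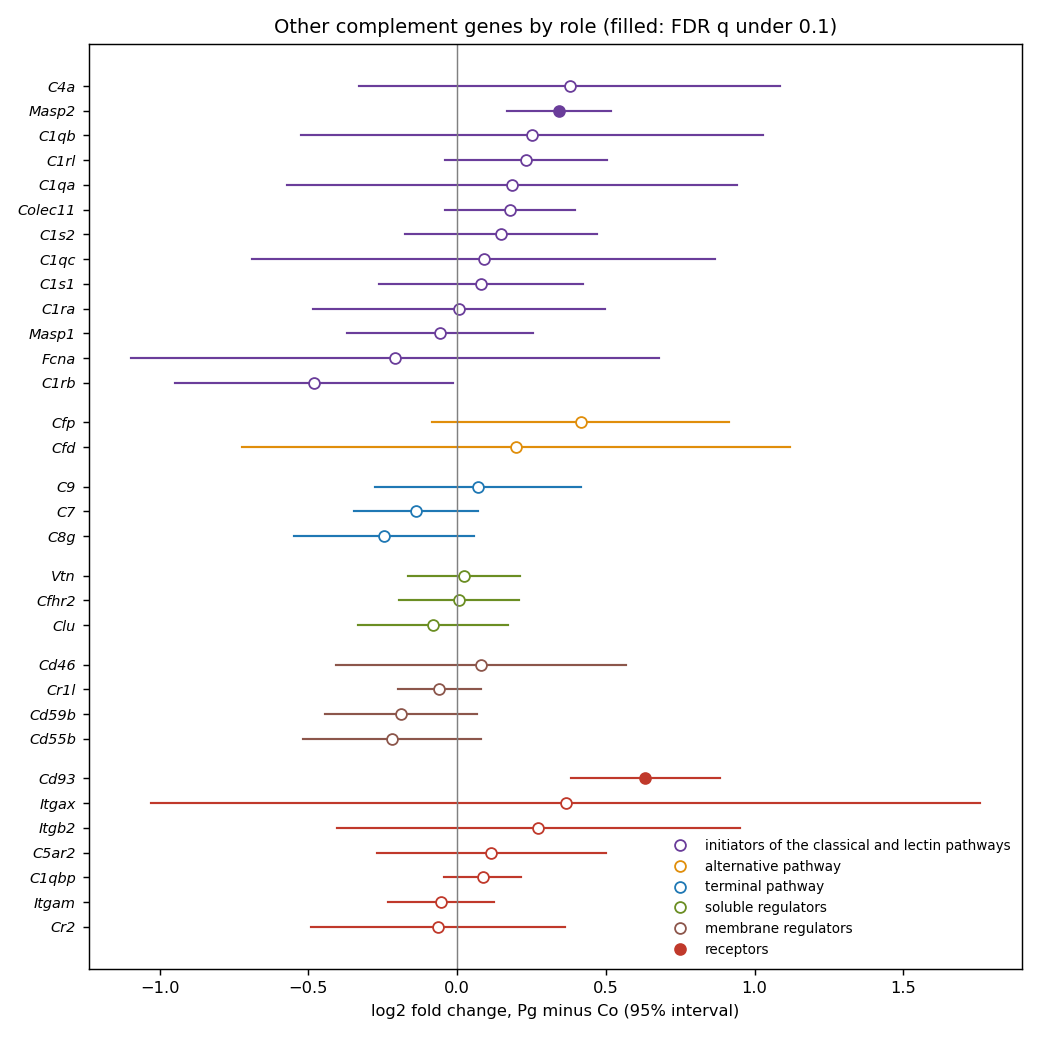
Fitted log2 fold change, Pg minus Co (horizontal axis), with its 95% interval for 13 initiators and for tested genes of the other roles (vertical axis), grouped and coloured by role. Filled points have an FDR q under 0.1. *Cd93* (0.63) and *Masp2* (0.34) are the filled points, and *C1rb* is the only open point whose interval does not contain 0.

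Marker genes of other cells also varied with the array on which *C3*, *C4b*, *Cfb* and *C2* were highest. Of 8 adipocyte genes, all 8 were above background on all 8 arrays. Their mean deviated from the Co mean by 0.57 in Pg replicate 1 and 0.54 in Co replicate 2, and by -0.28 to 0.08 in the other 6 arrays. Their summed signal, of which *Fabp4* and *Pnpla2* were the brightest parts, was 155100 to 168500 in Co and 146700 to 175700 in Pg. *Plin1*, which coats lipid droplets, read 8.27 in Pg replicate 1 and 7.67 in Co replicate 2, against 6.53 to 7.29 in the others. It had the largest deviation of the 8 genes in Pg replicate 1, at 1.38, whereas *Fabp4*, *Lep*, *Lipe* and *Pnpla2* deviated there by -0.02 to 0.11. The median deviation of the component probes was 0.25 in Co replicate 2 and 1.18 in Pg replicate 1.

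The mean of 10 skeletal muscle genes was lowest in Pg replicate 1, where it deviated from the Co mean by -0.92, and next in Co replicate 3, by -0.50. In Pg replicate 1 the deviation was -4.35 at *Myh4*, -2.60 at *Actn3* and -1.29 at *Pvalb*, and between -0.48 and 0.01 at the other 7 genes. Of these 7, *Tnnt3* and *Tnni2* read 18.81 to 18.84 on every array, at the top of the normalized scale, so that their signal could hardly vary. Of the 10 muscle genes, 9 had a negative difference, and *Atp2a1*, a calcium pump of muscle, fell (-0.44, limma q = 0.0410). Across all probes tested, 42.3% had a positive difference and 6% were called lower. *Myh4*, a fast muscle myosin, read 11.38 in Pg replicate 1, 13.38 in Co replicate 3 and 17.07 in Pg replicate 2. The summed signal of the muscle list, in which *Tnnt3* and *Tnni2* were the brightest, was 1866000 to 2077000 in Co and 1815000 to 2077000 in Pg. The mean of the 6 tested neutrophil genes deviated from the Co mean by 1.34, 1.2, 0.15 and 0.50 in Pg replicates 1 to 4 and by -0.12 to 0.16 in Co. All 6 had a positive difference, 3 of them at an unadjusted p under 0.05 and none at a limma q under 0.1. The shares over all probes tested were 42.3%, 22.8% and 7.82%, respectively. The 10 neutrophil genes did not share one order of the arrays. *S100a8* and *S100a9* were highest in Pg replicates 1 and 2, *Csf3r* was highest in Pg replicate 3 and *Mpo* in Pg replicate 4, and *Camp* read 6.69 and 6.79 in Pg replicates 1 and 2 against 6.96 and 6.94 in Pg replicates 3 and 4. *Retnlg* was above background on 2 Pg arrays and no Co array, and read 4.99 and 5.35 in Pg replicates 1 and 2 against 2.05 to 2.29 in Co. *S100a8* read 8.59 and 8.32 in Pg replicates 1 and 2, against 4.56 to 5.33 in Co, and 5.18 and 6.76 in the other Pg arrays. Of the 10 neutrophil genes, 5 were above background on all 8 arrays, *Ngp* and *Ltf* were above background on none, and the summed signal, of which *Csf3r* was the brightest part, was 40170 to 50250 in Co and 47620 to 55130 in Pg.

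Of 10 hepatocyte genes, 3 were above background on all 8 arrays. *Apoa1*, *Ttr*, *Fgb* and *Ahsg* were above it on none and *Alb* on 3 Co and no Pg arrays. The summed signal of the hepatocyte genes, of which *Apoa2* was the brightest part, was 1944 to 2310 in Co and 2010 to 2117 in Pg. All 8 fibroblast genes were above background on all 8 arrays. Their summed signal, of which *Dcn* was the brightest part, was 74680 to 108500 in Co and 78720 to 107800 in Pg. The part of adipocyte, muscle, neutrophil, fibroblast and hepatocyte RNA in the component values was not tested. With both Pg replicate 1 and Co replicate 2 left out, a choice made after seeing the data, 1 of the 33819 probes tested was called by limma, and none of the 16, whose lowest q was 0.287.

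**Figure D4:**
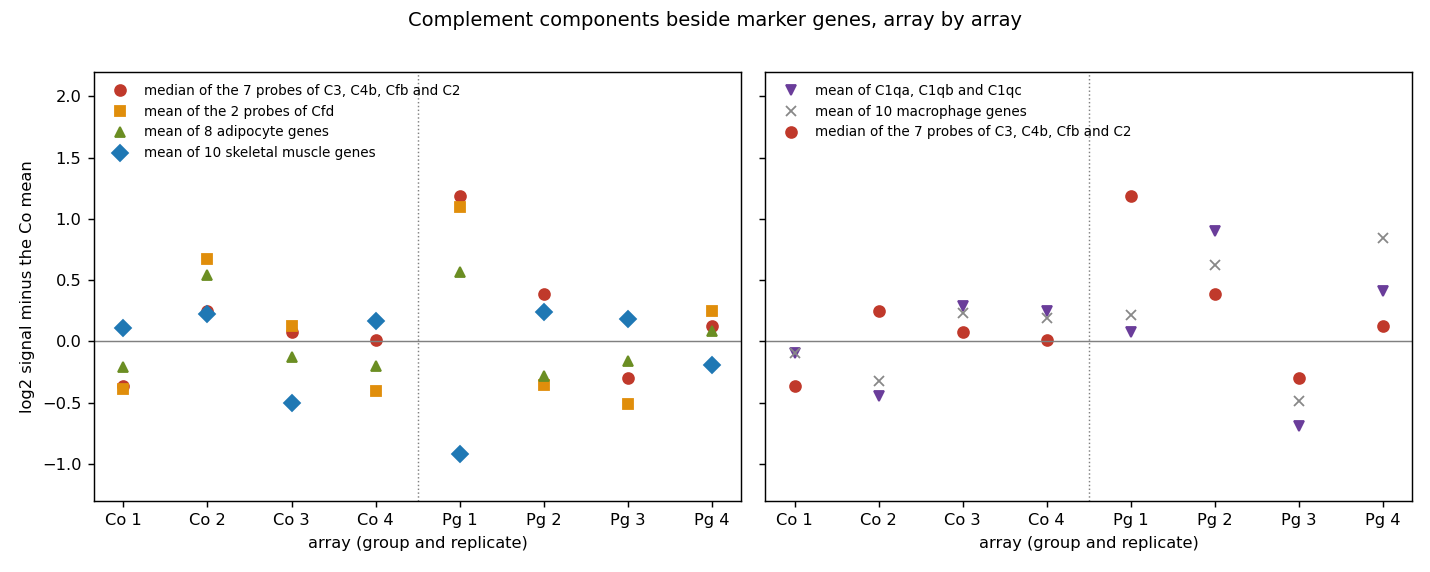
Log2 signal minus the Co mean (vertical axes) on each of the 8 arrays (horizontal axes, group and replicate). The left panel shows the median of the 7 probes of *C3*, *C4b*, *Cfb* and *C2* beside the means of *Cfd*, of 8 adipocyte genes and of 10 skeletal muscle genes, and the right panel shows the same component median beside the means of *C1qa*, *C1qb* and *C1qc* and of 10 macrophage genes. The component median is 1.18 in Pg replicate 1, where the muscle mean is -0.92, and the C1q mean is highest in Pg replicate 2, at 0.90.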

How the data were processed

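The authors deposited the Feature Extraction 11.0.1.1 output of each array, whose processed Cy3 intensities had local trends and background removed and carried surrogates in place of low values. They also deposited a table of 28067 probes with log2 values, used here as an alternative. Its columns of fold changes, ratios, p-values and scores from the authors' own comparison were not used.

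Of 59305 spots, population outliers were left out and the spots of a probe averaged. In R 4.3.3, the intensities were quantile-normalized and put on a log2 scale with 1 as the floor. A probe entered the fit when 4 or more arrays were well above background (33819 probes). Groups were compared by limma 3.58.1 (lmFit, eBayes) in a two-sided test, p-values were adjusted after Benjamini and Hochberg across the fitted probes, and a q under 0.1 was a call. The number of arrays limits the precision. Alternatives were the background correction, the signal, the scaling, the filter, the deposited values, a replicate block and each array left out.

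Every member probe was named. Of the other complement genes, those called, the 3 highest and 3 lowest differences and those never above background were named. The rest of that list is given by counts or was named with its values known, and 1 gene was left out of the plot. Members and lists were chosen with earlier results of these data known.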

Additional observations from a re-analysis of the deposited data

Results flagged for a closer look

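Of 46 groups of 4 arrays screened, 1 held a sample far from the others. By chance about 1 group in 20 would, so this is no more than chance gives. The *Cfb* probe A_51_P413866 read 7.96 in Co replicate 1, while the other 3 Co arrays read 8.40 to 8.47. The gap to the nearest array was 0.865 of the whole range of the group, above the critical value for 4 samples. The other *Cfb* probe was also lowest among the Co arrays in that replicate, at 5.67 against 6.17 to 6.42. Both probes read the same RNA sample, so they are not separate observations.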

How the results depend on the processing

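Directions at *C3*, *C4b*, *Serping1*, *Cd59a* and *C3ar1* were the same under every alternative run. Of the 16 probes, 1 (*C3ar1*) was called with normexp and 0 under the other alternatives. The number of all probes called (2644) was 3452 with normexp, 3065 with the median signal, 3009 with all 8 arrays above background, 1546 with scaling to the 75th percentile, 29 with no normalization, 1269 with no filter, 1715 from the deposited values, 1 without both Co replicate 2 and Pg replicate 1 (chosen after seeing the data), and 3 (without Co replicate 3) to 2411 (without Pg replicate 3) with each array left out. Of the other complement genes (2 called), 1 was called with normexp, 1 with the median signal, 1 from the deposited values, 0 with no normalization, 0 without both arrays and 0 to 3 with each array left out. The cause was not tested. The deposited values covered 11 of the 16 probes.

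Replicate numbers were shared between groups, and samples of the same number lay in the same slide column. Deviations of same-numbered samples correlated at -0.07 to 0.18, with 1 of 4 above 0.1. Co replicates 1 and 4 correlated most with the Pg sample of their own number. These few weak correlations cannot decide whether the numbers pair the samples. With the replicate block in limma, 0 of all probes were called (7392 at an unadjusted p under 0.05), and 0 of the 16 and 0 of the other complement genes, *Cd93* (q = 0.122) included.

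Signs turned at probes whose difference was between -0.17 and 0.21. *C5ar1* was -0.017 with normexp and -0.00095 with the median signal. *Cfb* A_66_P138911 was -0.031 with the median signal, -0.025 from the deposited values and -0.069 without both arrays. For *Cd55*, A_51_P388412 was 0.024 and A_52_P199084 was 0.0055 with no normalization, and from the deposited values A_52_P199084 was 0.0026 and A_55_P2101585 was -0.0036. With each array left out, *C2* ranged from -0.15 to 0.23, *Cfb* from -0.029 to 0.40 and from -0.17 to 0.24, *C5ar1* from -0.23 to 0.38 and *Cd55* A_51_P388412 from -0.16 to 0.060. The median of the 16 probes ranged from -0.05 (without Co replicate 1) to 0.23 (without Pg replicate 3).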
